A study of Homo sapiens with 6 samples.

Results

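The genes described here are 10 listed members of 3 families of membrane-organising proteins: the tetraspanins CD9, CD63, CD81, CD82, CD151 and TSPAN8, the caveolins CAV1 and CAV2, and the flotillins FLOT1 and FLOT2. They were matched by symbol in a count table of 26485 genes, and all 10 had a row and passed the filter on low counts. RNA was sequenced from PC-9, a human lung cancer line driven by mutant EGFR, in which a stably expressed short hairpin RNA depletes IFITM3 (shIFITM3, 3 samples), and from PC-9 cells with a control hairpin (shControl, 3 samples). The titles call the control shControl and the column names call it ShEV, both groups grew in RPMI with serum, and no drug is named for either. The samples are called biological replicates, but nothing says whether they came from separate cultures, so p-values measure the spread between these samples, which may be technical. The sources used here do not give the number of hairpins or whether the lines are clones.

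Tetraspanins cross the membrane several times and gather integrins, proteases and receptors into shared patches of membrane, at the cell surface and in endosomes. Caveolins bind cholesterol and, with the cavin coat, shape caveolae, and flotillins assemble on the inner face of cholesterol-rich membrane and act in endocytosis. IFITM3 is itself a small lipid-modified protein of endosomal membranes, known for blocking the entry of viruses, and CD9, CD63 and CD81 are commonly used as markers of extracellular vesicles.

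In cells depleted of IFITM3 6 of the 10 genes rose and 0 fell (quasi-likelihood test of edgeR, p under 0.05 after Benjamini-Hochberg adjustment over all 14018 tested genes). The rises were those of CD9, CD63, TSPAN8, CAV1, CAV2 and FLOT1, while CD81, CD82, CD151 and FLOT2 did not pass. TSPAN8 passed the filter on low counts only through the shIFITM3 libraries, where it was higher, so its rise is not independent of that filter. Over all tested genes 56.1% passed in either direction, 27.7% higher and 28.4% lower, so changes of this kind were common. In RNA from whole cultures, fewer cells of a type and less RNA per cell cannot be told apart. At an unadjusted p under 0.05, 6 members were higher and 1, CD81, was lower. DESeq2 counted 6 and 0 and limma-voom 6 and 1. The members' log2 fold changes had a median of 0.17, against -0.0001 over all tested genes, and ranged from -0.20 for CD82 to 1.53 for TSPAN8. In 7 of the 10 the groups' ranges in CPM (counts scaled to a common library size) did not overlap, 6 higher and 1 lower, against 60.9% of all tested genes, 30.1% higher and 30.8% lower. None passed a test against a 1.5-fold change (glmTreat, 1 at an unadjusted p under 0.05), which 7.95% of all tested genes passed. With a correction for GC content and length, added after the data were seen, the 6 rises stood and CD81, CD82 and CD151 also passed as lower, at log2 fold changes of -0.19, -0.28 and -0.11.

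Total counts ranged from 21342028 to 77228760 per library, the highest being shControl replicate 2. IFITM3 was at 10.4, 12.9 and 9.75 CPM in shIFITM3 and at 57.0, 60.5 and 62.8 CPM in shControl cells, which goes with the labels of all 6 samples. IFITM1 was also lower (log2 fold change -0.90, edgeR adjusted p = 0.025), at 14 to 21 counts in shIFITM3 and 25 to 95 counts in shControl libraries. It did not pass in DESeq2 (adjusted p = 0.0698). IFITM2 (0.31, edgeR adjusted p = 0.59) did not pass. All 8 epithelial markers checked were expressed, summing to 9851 to 10090 CPM in shIFITM3 and 10680 to 10780 CPM in shControl cells. Of these 3 rose and 3 fell, against 27.7% higher and 28.4% lower over all tested genes. EGFR (log2 fold change 0.74) and MET (0.45) rose. Named after their values were seen, EPCAM (0.09) rose too, while CDH1 (-0.60), KRT8 (-0.50) and KRT18 (-0.29) fell. Markers of leukocytes summed to 2.999 to 3.65 CPM in shIFITM3 and 3.83 to 4.92 CPM in shControl cells, and LAPTM5, the only one that could be tested, was lower (-0.84). Of 5 endothelial markers 3 could be tested, and KDR (log2 fold change 3.03) and CDH5 (1.68) were higher and PECAM1 (-1.66) lower. All 3 passed at an adjusted p under 0.05 in edgeR, as did 56.1% of all tested genes. They also passed the test against 1.5-fold, which 7.95% of all tested genes passed. All 5 summed to 5.52 to 6.28 CPM in shIFITM3 and 3.53 to 4.38 CPM in shControl cells. KDR passed the filter on low counts through the shIFITM3 libraries, where it was higher. Fibroblast markers summed to 9.996 to 13.9 CPM in shIFITM3 and 9.18 to 10.5 CPM in shControl cells, with DCN and LUM at 0 in every library. COL1A1, the only fibroblast marker that could be tested, made up most of these sums and rose (0.29). It was at 9.996, 11.2 and 13.4 CPM in shIFITM3 and 10.5, 8.92 and 9.23 CPM in shControl cells. The part of these low levels in the results was not tested.

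**Figure D1:**
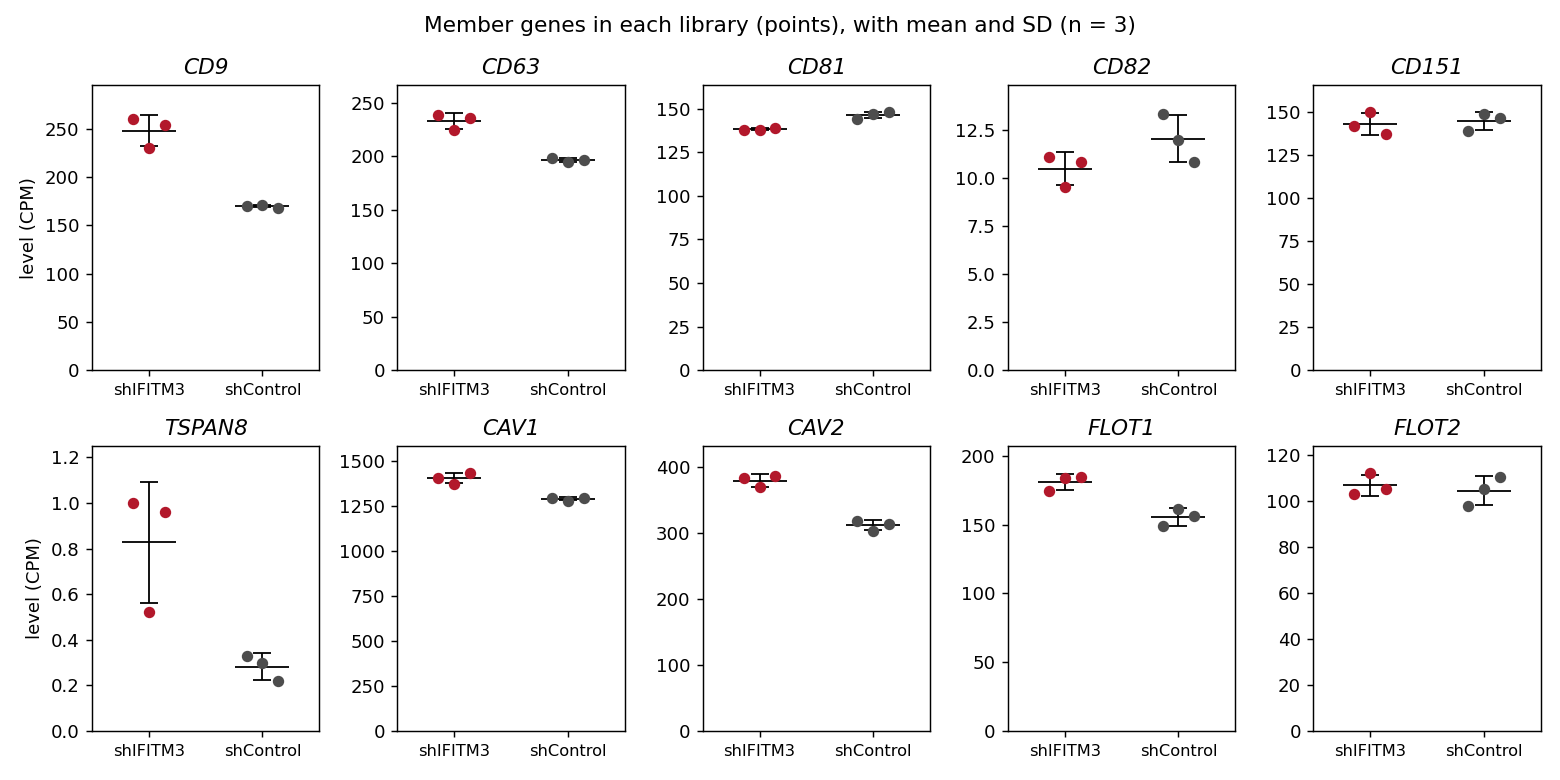
Level in CPM (vertical axis, from 0) of each member in the 3 shIFITM3 libraries (left, red) and the 3 shControl libraries (right, grey), with mean and SD. CD9, CD63, TSPAN8, CAV1, CAV2 and FLOT1 lie higher in every shIFITM3 library, CD81 lies slightly lower, and CD82, CD151 and FLOT2 overlap.

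CD9 (chromosome 12, 6199946 to 6238266, GRCh38), a surface tetraspanin that associates with integrins, had the largest rise among the abundant members. It stood at 259.8, 230.2 and 254 CPM in shIFITM3 replicates 1, 2 and 3, against 170.2, 171 and 168 CPM in shControl replicates 1, 2 and 3. The lowest shIFITM3 library, replicate 2, was still well above the shControl libraries. The means were 248 ± 15.6 CPM in shIFITM3 and 169.7 ± 1.37 CPM in shControl cells (SD, n = 3 each), which differ 1.46-fold, or by 0.55 on the log2 scale (SE 0.0399, adjusted p = 3.08e-11 in edgeR). Of all tested genes 86.4% had a lower log2 fold change or the same one.

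CD63 (chromosome 12, 55723535 to 55730041) sits mainly in late endosomes and lysosomes, from where it enters vesicles. Its level was 238, 225 and 235 CPM in the shIFITM3 replicates, against 198, 194 and 197 CPM in the shControl replicates. The groups were apart by more than the spread within either, with means of 233 ± 7.20 and 196 ± 1.93 CPM in shIFITM3 and shControl cells and a difference of 0.25 on the log2 scale (SE 0.0347, adjusted p = 1.73e-06 in edgeR).

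TSPAN8 (chromosome 12, 71125096 to 71157999), a tetraspanin of digestive epithelia tied to cell motility, had the largest log2 fold change and the lowest level. It had 22, 12 and 23 counts in the shIFITM3 replicates, against 7, 23 and 6 counts in the shControl replicates, the 23 of shControl coming from the deepest library. On the CPM scale these are 1.00, 0.522 and 0.963 in shIFITM3 and 0.330, 0.299 and 0.219 in shControl cells, so that shIFITM3 replicate 2 lay closer to the shControl libraries than to the others of its group, with no overlap. The log2 fold change was 1.53 with a 95% interval of 0.61 to 2.44 (edgeR adjusted p = 0.00504), and its average level stood at percentile 1.88 of the tested genes. TSPAN8 entered the test only through the shIFITM3 libraries, since its shControl levels were below what the filter asks. Without a filter its edgeR adjusted p was 0.0113. All 6 libraries were above the limit that a count of 0 would allow, 3 counts, which is 0.039 to 0.141 CPM by library. Counts may come in read pairs, so this limit may be too low for the 7 and 6 counts of shControl replicates 1 and 3. Over the 16 alternatives run for TSPAN8 the adjusted p lay between 0.00312 and 0.081, the highest in the test against 1.5-fold.

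CD81 (chromosome 11, 2376180 to 2397397), part of the B cell co-receptor and a receptor for hepatitis C virus, stood at 138, 138 and 139 CPM in the shIFITM3 replicates, against 144, 147 and 148 CPM in the shControl replicates. Every shIFITM3 library was lower, yet the gap was small: the log2 fold change was -0.08 with a 95% interval of -0.16 to -0.01 (edgeR adjusted p = 0.0626). It passed as lower with upper-quartile scaling (adjusted p = 0.0252) and limma-voom (0.0493). CD151 (chromosome 11, 832952 to 838831), which binds laminin-receptor integrins, lies 512 kb from IFITM3 on the same chromosome. Its level was 142, 149.7 and 137 CPM in shIFITM3 and 139, 148 and 146.5 CPM in shControl cells, so that the shControl range lay within the shIFITM3 range. The log2 fold change was -0.02 with a 95% interval of -0.11 to 0.07 (edgeR adjusted p = 0.709), and without shIFITM3 replicate 3 or shControl replicate 2 its sign turned (0.01 and 0.0022). CD151 shares 257 exon bases with POLR2L on the opposite strand, and CD81 shares 30 with its antisense gene.

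CD82 (chromosome 11, 44564409 to 44620358), known as a suppressor of metastasis, was far less abundant. It had 11.1, 9.52 and 10.8 CPM in the shIFITM3 replicates and 13.3, 11.99 and 10.8 CPM in the shControl replicates, with shIFITM3 replicate 1 above shControl replicate 3, so that the groups overlapped. The log2 fold change was -0.20 with a 95% interval of -0.42 to 0.03 (edgeR adjusted p = 0.125).

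The promoters of CD9 and TSPAN8, the pair with the largest rises among the 10 members, are shown because they differ in composition. The window is RefSeq's (GRCh38.p14), 250 bases before to 50 after the start nearest a principal GENCODE transcript, 5′ to 3′ on the gene's strand, with each GC box (GGGCGG on either strand, bound by SP1-type factors) in capitals.
CD9 promoter, chr12:6200150-6200449, plus strand: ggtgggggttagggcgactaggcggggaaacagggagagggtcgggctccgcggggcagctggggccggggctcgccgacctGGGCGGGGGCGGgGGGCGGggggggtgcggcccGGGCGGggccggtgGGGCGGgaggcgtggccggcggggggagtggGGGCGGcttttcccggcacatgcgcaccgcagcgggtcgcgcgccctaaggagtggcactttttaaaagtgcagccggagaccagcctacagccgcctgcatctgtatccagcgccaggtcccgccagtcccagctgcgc
TSPAN8 promoter, chr12:71157760-71158059, minus strand: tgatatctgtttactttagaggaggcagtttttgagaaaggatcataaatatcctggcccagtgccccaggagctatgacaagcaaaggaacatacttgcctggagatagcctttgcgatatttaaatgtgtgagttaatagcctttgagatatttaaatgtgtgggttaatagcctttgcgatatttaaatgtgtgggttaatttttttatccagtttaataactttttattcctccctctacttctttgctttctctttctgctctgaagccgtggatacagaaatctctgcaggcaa

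CD9's window held 6 GC boxes and was 75.7% G or C, whereas TSPAN8's held 0 and was 38.0% G or C, below the median of 58.7% over 35116 windows. Windows were found for 8 of the 10 members, all but CD81 and CD151, and 7 of these 8 held a GC box, against 45.0% of all windows. The other motifs searched on both strands, none of them overlapping a GC box, were the TATA box TATAAA (0 of 8 members, 11.5% of all windows), the E-box CACGTG (0, 7.26%) and the AP-1 site TGANTCA (1, FLOT2, 7.71%). The TEAD site GGAATG was in 0 of the 8 windows and 14% of all, and the sterol regulatory element TCACNCCAC in 0 and 1.13%. These matches describe letters only, and which start each gene uses in PC-9 was not measured.

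CAV1 (chromosome 7, 116525009 to 116561185), the structural protein of caveolae, was the most abundant member. Its level was 1406, 1374 and 1431 CPM in the shIFITM3 replicates, against 1295, 1278 and 1292 CPM in the shControl replicates. The groups did not overlap, but the difference was small, 1404 ± 28.3 CPM in shIFITM3 against 1289 ± 8.91 CPM in shControl cells (SD, n = 3 each), a 1.09-fold difference, or 0.12 on the log2 scale (SE 0.0249, adjusted p = 0.000176 in edgeR). CAV2 (chromosome 7, 116499738 to 116508541), which forms mixed oligomers with CAV1, ends 16.5 kb before it. It stood at 384, 369 and 386 CPM in shIFITM3 and 319, 304 and 313 CPM in shControl cells, with no overlap. Its log2 fold change was 0.29 (SE 0.0320, edgeR adjusted p = 5.23e-08), and its 95% interval of 0.22 to 0.35 lay above that of CAV1, 0.07 to 0.18.

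The neighbouring promoters of the caveolins are shown in the same RefSeq windows, and their relation to the changes in level was not tested. The start used lay 348 bases from the nearest principal GENCODE start for CAV2 and 224 bases for CAV1. Capitals mark GC boxes, as GGGCGG or its complement CCGCCC.
CAV2 promoter, chr7:116499488-116499787, plus strand: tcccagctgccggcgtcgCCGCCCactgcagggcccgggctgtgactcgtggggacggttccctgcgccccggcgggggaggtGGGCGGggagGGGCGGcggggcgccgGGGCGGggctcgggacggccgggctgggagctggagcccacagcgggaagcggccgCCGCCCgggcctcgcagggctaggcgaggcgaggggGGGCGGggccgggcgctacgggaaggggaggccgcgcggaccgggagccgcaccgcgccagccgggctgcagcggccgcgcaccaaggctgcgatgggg
CAV1 promoter, chr7:116524759-116525058, plus strand: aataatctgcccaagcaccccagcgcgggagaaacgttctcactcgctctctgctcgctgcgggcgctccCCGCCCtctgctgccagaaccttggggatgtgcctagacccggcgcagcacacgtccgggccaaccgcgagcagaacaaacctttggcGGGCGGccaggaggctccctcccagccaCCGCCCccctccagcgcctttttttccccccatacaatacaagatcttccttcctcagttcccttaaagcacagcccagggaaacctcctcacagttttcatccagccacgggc

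CAV2's window held 6 GC boxes and was 82.7% G or C, and CAV1's held 3 and was 62.3% G or C. MET, the receptor gene in the study's title, lies 111 kb beyond CAV1, and TES lies 241 kb before CAV2. Of the 8 listed neighbours of the caveolins on 7q31, 4 were expressed enough to be tested, of which 2 rose and 0 fell (0 fell at an unadjusted p under 0.05, in DESeq2 and in limma-voom). For comparison, 27.7% of all tested genes were higher and 28.4% lower. MET was at 1056, 1039 and 1046 CPM in shIFITM3 and 786, 759.9 and 759 CPM in shControl cells (log2 fold change 0.45, edgeR adjusted p = 5.99e-13). TES, which encodes a focal adhesion protein, had a log2 fold change of 0.29 (edgeR adjusted p = 4.78e-08). CAPZA2 (0.02) and ST7 (0.06), on the far side of MET, did not pass, and TFEC, WNT2, ASZ1 and CFTR were too low to test, with ASZ1 at 0 in all libraries.

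FLOT1 (chromosome 6, 30727709 to 30742687) and FLOT2 (chromosome 17, 28879339 to 28897733) encode the flotillins, which work as mixed oligomers. FLOT1 stood at 174, 184 and 185 CPM in the shIFITM3 replicates, against 149, 162 and 156 CPM in the shControl replicates. All shIFITM3 libraries were higher, and FLOT1 rose by 0.21 on the log2 scale (SE 0.0392, adjusted p = 5.81e-05 in edgeR). FLOT2 was at 103, 112 and 105 CPM in shIFITM3 and 97.99, 105 and 110.4 CPM in shControl cells, where shControl replicate 3 was above 2 of the shIFITM3 libraries. Its log2 fold change was 0.03 with a 95% interval of -0.07 to 0.13 (edgeR adjusted p = 0.614).

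**Figure D2:**
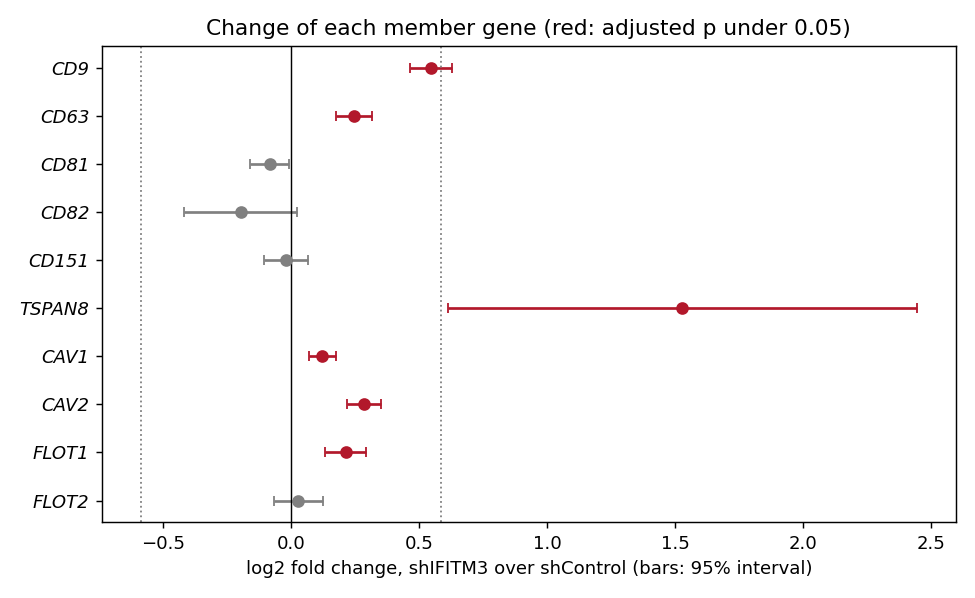
Log2 fold change of each member, shIFITM3 over shControl (horizontal axis), with its 95% interval; red marks an adjusted p under 0.05 and dotted lines mark 1.5-fold. Only the interval of TSPAN8, 0.61 to 2.44, lies past the 1.5-fold line as a whole, and the other 5 rises lie between 0 and that line or reach just over it.

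Ratios within a library do not depend on its scaling. The ratio of CD9 to CD81 counts was 1.88, 1.67 and 1.83 in the shIFITM3 replicates, against 1.18, 1.16 and 1.14 in the shControl replicates. CAV1 to CAV2 was 3.66, 3.72 and 3.70 in shIFITM3 and 4.06, 4.21 and 4.13 in shControl cells. FLOT1 to FLOT2 was 1.69, 1.64 and 1.76 in shIFITM3 and 1.52, 1.54 and 1.41 in shControl cells. All 3 ratios separated the groups without overlap, with differences in the mean log2 ratio of 0.63, -0.16 and 0.18. Of all tested genes 60.9% separated the groups by their own CPM, and the share of other gene pairs that do so was not computed. Each of the 3 ratios had an exact two-sided permutation p of 0.1, also 0.1 when adjusted over the 3. That is the smallest that 3 against 3 samples allow, so this design could not reach 0.05.

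**Figure D3:**
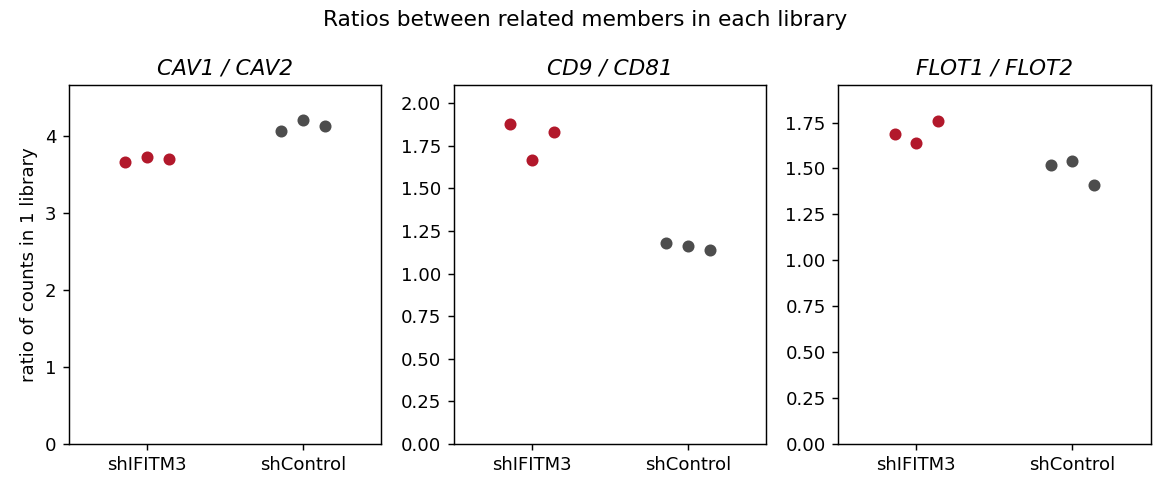
Ratio of raw counts of 2 related members in each library (vertical axis, from 0), shIFITM3 left and shControl right, 1 point per library. CD9 to CD81 and FLOT1 to FLOT2 are higher and CAV1 to CAV2 is lower in all 3 shIFITM3 libraries.

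To compare genes with each other, CPM were divided by the length of all annotated exons in kilobases. On that scale CAV1 led by far, with a level of 344 ± 6.93 CPM per kb in shIFITM3 and 316 ± 2.18 in shControl cells, followed by CD63 at 88.4 ± 2.74 in shIFITM3 and 74.5 ± 0.734 in shControl cells. CD9 ranked 3 in shIFITM3 cells at 59.5 ± 3.74 and 5 in shControl cells at 40.8 ± 0.329. In shIFITM3 cells CD9, FLOT1 (56.8 ± 1.83) and CAV2 (54.9 ± 1.33) had overlapping ranges and cannot be ordered by all exons, whereas in shControl cells FLOT1 (48.8 ± 1.99), CAV2 (45.0 ± 1.12) and CD9 did not overlap. CD151 came next at 36.3 ± 1.65 in shIFITM3 and 36.7 ± 1.31 in shControl cells, and FLOT2 followed at 32.01 ± 1.40 in shIFITM3 and 31.3 ± 1.86 in shControl cells. Below these were CD81 (18.7 ± 0.0794 in shIFITM3, 19.8 ± 0.258 in shControl), CD82 (2.59 ± 0.207 in shIFITM3, 2.97 ± 0.303 in shControl) and TSPAN8 (0.329 ± 0.106 in shIFITM3, 0.112 ± 0.0227 in shControl).

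CD81 carries 7.394 kb of annotated exon but only 1.52 kb in its principal transcript, and by that shorter length it stood at 90.97 ± 0.386 CPM per kb in shIFITM3 and 96.2 ± 1.26 in shControl cells. By the means that is rank 6 in shIFITM3 and rank 4 in shControl cells, against rank 8 in both with all exons. By principal transcript its range overlapped that of FLOT1 in shIFITM3 and that of CAV2 in shControl cells, so these pairs cannot be ordered. CAV1, CD63 and CD9 were the leading 3 in both groups by principal transcript. There CD9 was at 158 ± 9.96 CPM per kb in shIFITM3 and 108 ± 0.876 in shControl cells, above CAV2 (115 ± 2.79 in shIFITM3, 94.5 ± 2.35 in shControl) and FLOT1 (94.6 ± 3.05 in shIFITM3, 81.4 ± 3.32 in shControl), so the order of these genes depends on the length used. CD9's share of the summed per-kb level of the 6 tetraspanins was 28.9 ± 1.08% in shIFITM3 and 23.3 ± 0.206% in shControl cells by all exons, and 29.9 ± 1.15% in shIFITM3 and 23.8 ± 0.241% in shControl cells by principal transcript. By all exons, CD63's share was 43.0 ± 0.257% in shIFITM3 and 42.6 ± 0.561% in shControl cells. CD151's share was 17.6 ± 1.21% in shIFITM3 and 21 ± 0.679% in shControl cells by all exons, and 16.3 ± 1.1% in shIFITM3 and 19.1 ± 0.587% in shControl cells by principal transcript. CD81's was 9.09 ± 0.233% in shIFITM3 and 11.3 ± 0.116% in shControl cells by all exons, and 17.2 ± 0.415% in shIFITM3 and 21.1 ± 0.183% in shControl cells by principal transcript. Both shares were lower in shIFITM3 cells by either length, but which of these genes had the larger share turned with the length. A share also falls when other genes of the sum rise, as CD9 and CD63 did. The log2 fold changes of CD151 (-0.02) and CD81 (-0.08) themselves did not pass in edgeR.

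**Figure D4:**
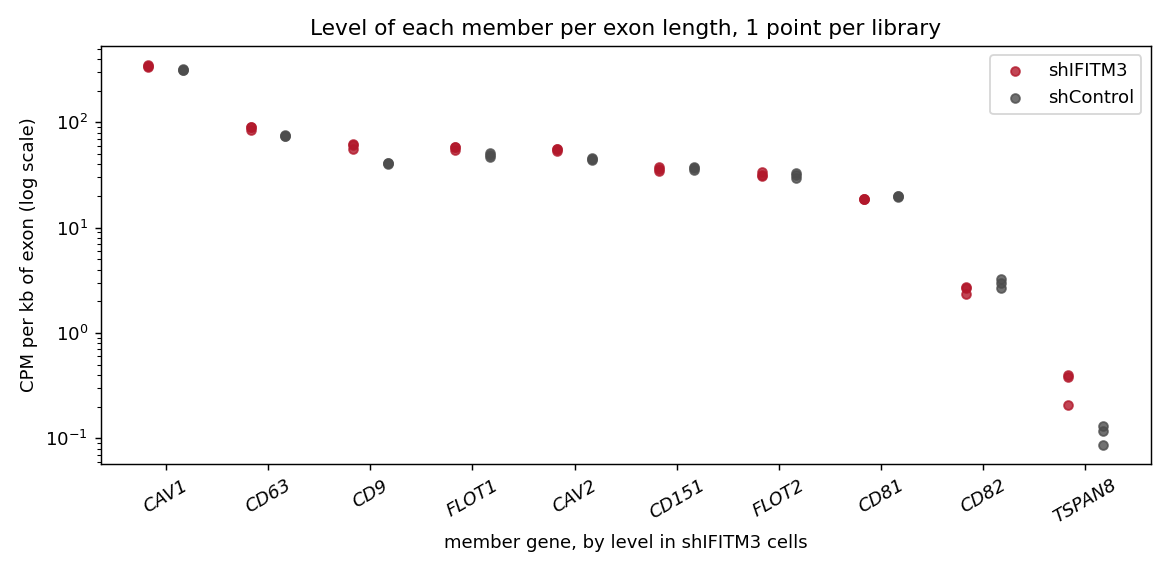
CPM per kilobase of annotated exon (vertical axis, log scale) of each member, 1 point per library, shIFITM3 in red left of shControl in grey, ordered by the shIFITM3 mean. Levels run from 344 for CAV1 to 0.329 for TSPAN8 in shIFITM3 cells, and on this exon length CD9 overlaps FLOT1 and CAV2 in shIFITM3 but lies below both in shControl cells, whereas by principal transcript it is above both in each group.

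Among the other tetraspanins, 17 of 27 were expressed enough to be tested. Of these 7 rose and 3 fell with a median log2 fold change of 0.12, where 27.7% of all tested genes rose and 28.4% fell. TSPAN5 stood at 46.4, 46.3 and 47.8 CPM in the shIFITM3 replicates, against 25.6, 24.5 and 24.1 CPM in the shControl replicates (log2 fold change 0.92, edgeR adjusted p = 2.72e-12). TSPAN5, TSPAN14 and TSPAN15 belong to the subgroup that escorts the sheddase ADAM10 to the surface. TSPAN14 rose to 304 ± 9.05 CPM in shIFITM3, against 247 ± 0.748 CPM in shControl cells (0.30), while TSPAN15 fell to 41.6 ± 1.02 CPM in shIFITM3, against 57.0 ± 0.859 CPM in shControl cells (-0.45). The remaining tested members of that subgroup, and ADAM10, are named after their values were seen: TSPAN33 rose (0.56), and TSPAN10 (0.47) and TSPAN17 (-0.08) did not pass. ADAM10 itself was at 289.7 ± 1.38 and 290.3 ± 7.89 CPM in shIFITM3 and shControl cells (-0.0020, edgeR adjusted p = 0.963). TSPAN12 (0.82), a co-receptor of Norrin signalling in blood vessels of the eye, and TSPAN4 (0.39), which builds migrasomes, rose, and TSPAN2 (-0.58) fell. TSPAN31 (0.32) and UPK1A (1.98) also rose and TSPAN6 (-0.23) fell, named after their values were seen. UPK1A had 19, 12 and 17 counts in the shIFITM3 replicates and 2, 22 and 0 counts in the shControl replicates, the 22 coming from the deepest library. These are 0.863, 0.522 and 0.711 CPM in shIFITM3 and 0.0943, 0.286 and 0 CPM in shControl cells, so its fold change rests on few counts. UPK1A also passed the filter on low counts only through the shIFITM3 libraries, where it was higher, so its rise is not independent of that filter. TSPAN31 overlaps exons of its neighbours CDK4 and AGAP2. Of the 10 that were too low to test, TSPAN16 and the retinal gene PRPH2 were at 0 in every library.

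Partners of the tetraspanins rose in 9 of 17 tested cases and fell in 3, with a median log2 fold change of 0.09. The shares over all tested genes were 27.7% higher and 28.4% lower. CD44, the hyaluronan receptor, was at 2237, 2231 and 2275 CPM in the shIFITM3 replicates, against 1229, 1178 and 1157 CPM in the shControl replicates (0.92, edgeR adjusted p = 4.46e-19). SDCBP, which encodes syntenin and binds the tail of CD63, was at 147.5 ± 6.76 CPM in shIFITM3 and 96.1 ± 3.59 CPM in shControl cells (0.62). The integrin subunit genes ITGB1 (0.50) and ITGB4 (0.51), the complement regulator gene CD46 (0.60) and PI4K2A (0.77), a lipid kinase found with tetraspanins, rose as well. The falls, named after their values were seen, were those of BSG (-0.15), PI4K2B (-0.13) and ITGA4 (-1.18, at 6 to 13 counts in shIFITM3 and 14 to 64 counts in shControl libraries). Their count was 1 without shIFITM3 replicate 2, without shControl replicate 3 and in DESeq2. ITGA4 passed the filter on low counts only through the shControl libraries, where it was higher, so its fall is not independent of that filter. PTGFRN (-0.01) and IGSF8 (0.08), which encode the immunoglobulin-type partners of CD9 and CD81, did not pass, and were picked after their values were seen.

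Of 13 tested genes of the caveola coat and neck 4 rose and 3 fell, with a median of 0.05. These counts are near the shares over all tested genes, 27.7% higher and 28.4% lower. EHD2, an ATPase that anchors caveolae at the surface, was at 58.6, 57.4 and 54.5 CPM in the shIFITM3 replicates, against 29.9, 30.6 and 29.3 CPM in the shControl replicates (log2 fold change 0.92, edgeR adjusted p = 8.66e-13). PRKCDBP, now called CAVIN3, was at 24.9 ± 1.36 CPM in shIFITM3 and 11.1 ± 0.772 CPM in shControl cells (1.15), and the main coat gene PTRF, now CAVIN1, at 586 ± 20.9 CPM in shIFITM3 and 489 ± 10.7 CPM in shControl cells (0.26). MURC, now CAVIN4, also rose (1.28), named after its values were seen, at 32, 30 and 24 counts in shIFITM3 and 10, 43 and 13 counts in shControl cells. The 43 came from the deepest library, and in CPM these are 1.45, 1.30 and 1.00 in shIFITM3 and 0.471, 0.559 and 0.474 in shControl cells. ROR1 (-0.46), which holds caveola proteins together in lung adenocarcinoma, PACSIN3 (-0.16) and DNM2 (-0.14), the membrane-cutting dynamin, fell. CAV3, the muscle caveolin, was too low to test.

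Relatives of the flotillins in the stomatin, prohibitin and erlin families had 0 of 7 tested genes rising and 4 falling, with a median of -0.23 (0 rose at an unadjusted p under 0.05, in DESeq2 and in limma-voom). Among all tested genes 27.7% rose and 28.4% fell. ERLIN1, of the endoplasmic reticulum, was at 54.4, 61.4 and 60.8 CPM in the shIFITM3 replicates, against 89.9, 87.9 and 87.4 CPM in the shControl replicates (-0.59, edgeR adjusted p = 4.12e-10), with 37 exon bases shared with CHUK. The other 3 falls, STOML2 (-0.32), PHB (-0.24) and PHB2 (-0.23), encode proteins of the mitochondrial inner membrane. ERLIN2 (-0.11), STOML1 (0.24) and STOM (0.06) did not pass, though ERLIN2 did without shControl replicate 1 (-0.17, edgeR adjusted p = 0.0352).

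Tetraspanins, caveolins and flotillins carry palmitate, as does IFITM3. Of 20 tested genes of palmitoyltransferases 9 rose and 4 fell, with a median of 0.09, against 27.7% higher and 28.4% lower over all tested genes. ZDHHC8 (0.52), ZDHHC7 (0.36), ZDHHC13 (0.34), ZDHHC9 (0.30) and ZDHHC18 (0.23) rose, and ZDHHC16 (-0.30) fell. ZDHHC2, which acts on CD9 and CD151, ZDHHC5, which acts on FLOT2, and ZDHHC20, which acts on IFITM3, were looked at after their values were seen, with log2 fold changes of 0.19, 0.12 and -0.18 (edgeR adjusted p = 0.0117, 0.00296 and 0.00112).

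**Figure D5:**
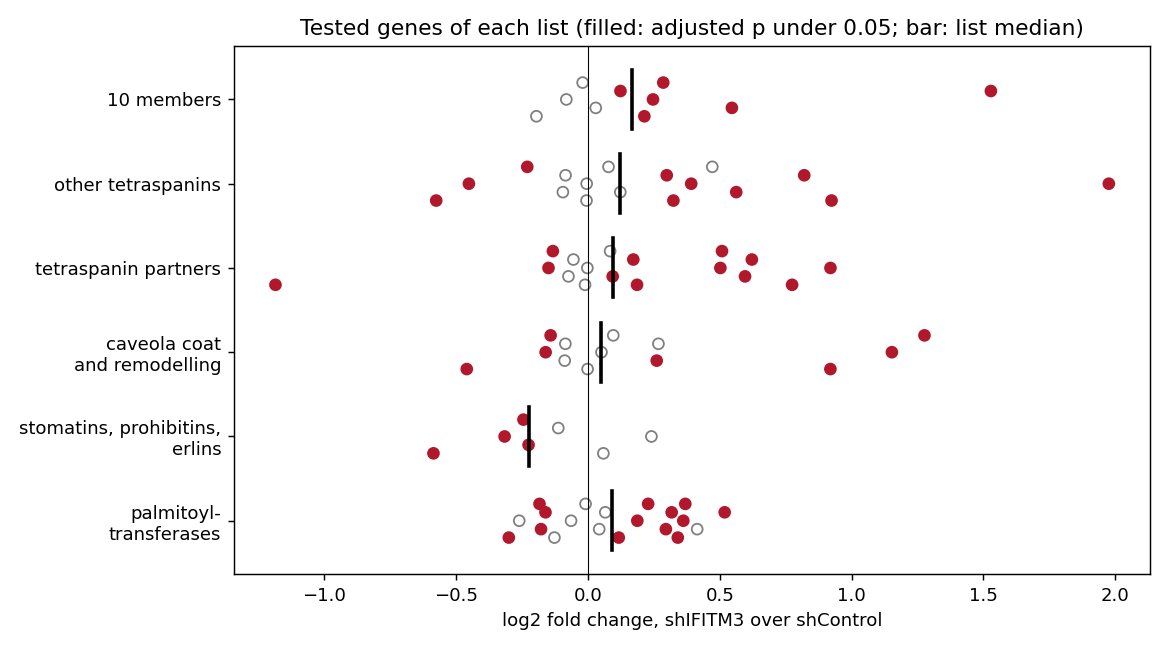
Log2 fold change, shIFITM3 over shControl (horizontal axis), of every tested gene in the 10 members and 5 related lists (rows); filled points passed an adjusted p of 0.05 and black bars are list medians. The members and 4 lists have medians between 0.05 and 0.17, and the relatives of the flotillins have a median of -0.23.

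TSPAN8, the member with the largest change, was set beside 8476 genes whose log2 CPM averaged 4 or more, by the root mean square distance of centred log2 CPM over the 6 samples. The nearest were JMY, which encodes an actin nucleator (distance 0.236, log2 fold change 1.06), DAB2, an endocytic adaptor (0.242 and 1.54), and PPP1R15A, a phosphatase subunit of the stress response (0.258 and 1.25). TSPAN8 itself had 6 to 23 counts per library and entered the test only through the shIFITM3 libraries, where it was higher. A prior count of 2 was added before taking logs, which draws its values together more than those of the compared genes. The direction of change in the nearest genes follows from the matching.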

How the data were processed

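Raw counts of reads for each gene symbol in all 6 samples were deposited by the authors, without normalization. The submitters' processing notes, the source for the authors' tools, list HISAT2 2.2.1 and hg38, featureCounts (Subread 2.0.6), SAMtools 1.20, fastp 0.23.4 and FastQC 0.12.1. The sources used here name neither the annotation nor the strand setting of the counting, and genes that overlap on opposite strands may therefore share reads. Between 78.4% and 82.5% of counts from 1 to 10 were even, so counts may come in read pairs, and floors, which cover counting error only, may be too low.

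Counts were fitted in R 4.3.3 with edgeR 4.0.16: filterByExpr, TMM, glmQLFit on group alone and glmQLFTest, two-sided, with Benjamini-Hochberg adjustment over 14018 genes and a threshold of 0.05. SE is the absolute log2 fold change over the square root of F. The fit was tested on simulated data. Coordinates are RefSeq's (GRCh38.p14, the assembly of hg38), and exon lengths GENCODE 29's. Alternatives covered scaling, filters, DESeq2 1.42.0, limma-voom (limma 3.58.1), thinning and each sample left out. Genes named are the members, IFITM3, IFITM1, IFITM2, MET and EGFR, and the 6 smallest p of each list (all tested where 8 or fewer). Exceptions are marked in the text. The members and lists were chosen with earlier results of these data known.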

Additional observations from a re-analysis of the deposited data

How the results depend on the processing

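The count of 6 members that rose stood under total-count, RLE and upper-quartile scaling, without a filter, in DESeq2 and limma-voom, with the replicate block, thinning, GC and length correction and with each sample left out (6 to 6). With the strict filter, which leaves TSPAN8 untested, 5 rose. It became 0 in the test against 1.5-fold. The count of 0 that fell became 1 with upper-quartile scaling and limma-voom (CD81) and 3 with GC and length correction, and was 0 with each sample left out. GC and length correction moved the median of all genes by -0.06 on the log2 scale and the calls over all genes to 3360 higher and 4891 lower, against 3885 and 3985, and gave 5 falls among the other tetraspanins, 6 among their partners and 5 among the caveola genes, against 3 in each. The strict filter left 1 fall among the partners. The test against 1.5-fold left 807 higher and 308 lower, and with it the counts of 4 to 9 rises in the related lists became 0 to 2. Without one sample, the ratio differences ranged from 0.59 to 0.68 for CD9 over CD81, from -0.17 to -0.15 for CAV1 over CAV2 and from 0.147 to 0.208 for FLOT1 over FLOT2.

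Signs turned only for genes that did not pass: CD151 without shIFITM3 replicate 3 (0.0086) and shControl replicate 2 (0.0022), FLOT2 without shIFITM3 replicate 2 (-0.0077), without shControl replicate 1 (-0.0099) and after GC and length correction (-0.0515), and STOM without shIFITM3 replicate 1 (-0.0280) and shControl replicate 2 (-0.0222). ST7 turned without shIFITM3 replicate 3 (-0.0262) and after GC and length correction (-0.0076), and CAPZA2 after thinning (-0.0029), without shIFITM3 replicate 3 (-0.0011) and shControl replicate 2 (-0.0165) and after GC and length correction (-0.0110). With each sample left out in turn, CD151 ranged from -0.0569 to 0.0086, FLOT2 from -0.0099 to 0.0667, STOM from -0.0280 to 0.1455, ST7 from -0.0262 to 0.1217 and CAPZA2 from -0.0165 to 0.0556. The cause was not tested. Same-numbered samples of the groups did not deviate together (r of 0.016, 0.033 and 0.006 across genes), and with the replicate block 6 members rose and 0 fell, with 3865 and 4005 over all genes. Among the members depth limits TSPAN8 most, at 6 to 23 counts per library. Levels per kilobase, and the order of CD9, CAV2, FLOT1, CD81 and CD151 by them, depend on the exon length used.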
